A study of Sus scrofa with 9 samples.

Results

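Liver transcripts of pigs on the 2 iron extremes were compared with those of the control pigs. The contrast was the average of the low-iron and high-iron group means minus the control mean, which looks for U-shaped responses. Either extreme can carry this average, so the value of each is given beside it. It used all 9 libraries of the series, 6 from the extremes and 3 controls, and the 12584 of 25918 genes in the deposited table whose mean level was at least 0.5 FPKM (fragments per kilobase of transcript, scaled to library size). All pigs were of the Wujin breed, entered the trial at 35 days of age, were prefed for 5 days and then ate their diet for 30 days. Iron was added as iron glycinate at 0 mg/kg in the low-iron group, 100 mg/kg in the control group and 200 mg/kg in the high-iron group, on top of a shared basal diet. By the study's calculated composition the basal diet itself held iron, so the low-iron diet was not free of it. Each group had 3 sequenced livers, each from a single pig. Libraries are named by their group and the number in the label, namely low-iron 2, 3 and 7, control 4, 5 and 6, and high-iron 2, 7 and 8. Values for a gene are given in that order throughout.

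The liver stores iron and secretes hepcidin, the hormone that shuts the iron exporter ferroportin. Cells with too little iron keep the mRNA of the transferrin receptor through iron regulatory proteins, which bind stem-loops behind its coding region. Iron loading acts on hepcidin through BMP ligands and SMAD proteins, and several oxygenases, desaturases and sterol enzymes carry iron at their active site.

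A gene was called at an absolute log2 difference of at least 1 and an unadjusted limma p-value under 0.05, the thresholds of the study, on log2(FPKM + 0.1). Summed FPKM lay between 416922 and 456420 per library, 16235 to 17817 genes were above 0, and the 10 highest genes took 25.6% to 29.2% of the sum. Hepatocyte markers were abundant in every library, with a summed level of 90193 to 110411 FPKM over the list. EIF1AY, a gene of the Y chromosome, was listed at 0 in low-iron 3, control 5, high-iron 2 and high-iron 8 and at 14.99 FPKM or more in the other libraries. The table holds no counts, so the depth behind a value is unknown, and the precision rests on the spread between libraries, which may be technical in part.

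Of the 12584 genes, 92 were called (0.731%), 72 of them higher (0.572%) and 20 lower (0.159%) in the extremes. No gene reached an adjusted p-value under 0.05 for this contrast in limma (smallest 0.215). An unadjusted p-value under 0.05 was found in 433 genes (3.44%), 362 higher (2.88%) and 71 lower (0.564%). With no true difference, that threshold would on average pass a fraction of 0.05 of the genes, more than was seen. The called genes comprised 52 with a gene symbol, 6 with a LOC number and 34 new genes without a name. The tested genes comprised 11124, 569 and 891 of these kinds. Calls thus made up 0.467% of genes with a symbol and 3.82% of new genes. The called genes had a median level of 1.43 FPKM, against 4.86 FPKM for all tested genes. In 32 of them the control mean was below 0.5 FPKM, so they passed the filter through the extremes, and in 9 the mean of the extremes was below it. PRG4 at a log2 difference of 1.01 stood just inside the fold threshold and SLC38A1 at -0.999 just outside it. At the filter, ANKRD23 at a mean of 0.5002 FPKM was tested and a new gene at 0.4996 FPKM was not.

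More of the tested genes were higher than lower in the extremes. The difference was above 0 in 8479 genes (67.4%) and below 0 in 4105 (32.6%), with a median of 0.09 on the log2 scale. After median-of-ratios scaling this median was -0.00, with 58 genes called higher and 26 called lower. List counts given below after that scaling have the median of -0.00 as their background. The 67.4% holds for the deposited values alone. The share of higher calls went from 78.3% to 61.0% under quantile normalization, where 50 were higher and 32 lower. In 172 genes (1.37%) all 6 libraries of the extremes were above all 3 controls and in 23 (0.183%) all were below. Median-of-ratios scaling turned these counts to 72 and 71.

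The 2 comparisons that make up the contrast, low-iron against control and high-iron against control, share their control libraries, so their values are given side by side without a test of likeness. Each extreme was called on the same side of control in 29 genes (0.23%), 27 higher (0.215%) and 2 lower (0.0159%). Of these 29, 18 had a symbol, all of them higher, and in 17 the extremes did not overlap the controls. Another 21 of the 92 genes were called in low-iron pigs alone and 41 in high-iron pigs alone, and 1 in neither. Over all tested genes 0.882% were called in low-iron and 1.57% in high-iron against control, whether or not in the other comparison. None of the 92 stood on opposite sides of control in the 2 extremes, which the contrast itself favours. Between high-iron and low-iron pigs 18 of the 92 also differed (background 1.54%), 13 of them higher in high-iron, and TFRC was the only 1 of the 29 that did. Without control 5 the 29 genes became 70, without control 6 they became 48, and without control 4 they became 47.

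**Figure D1:**
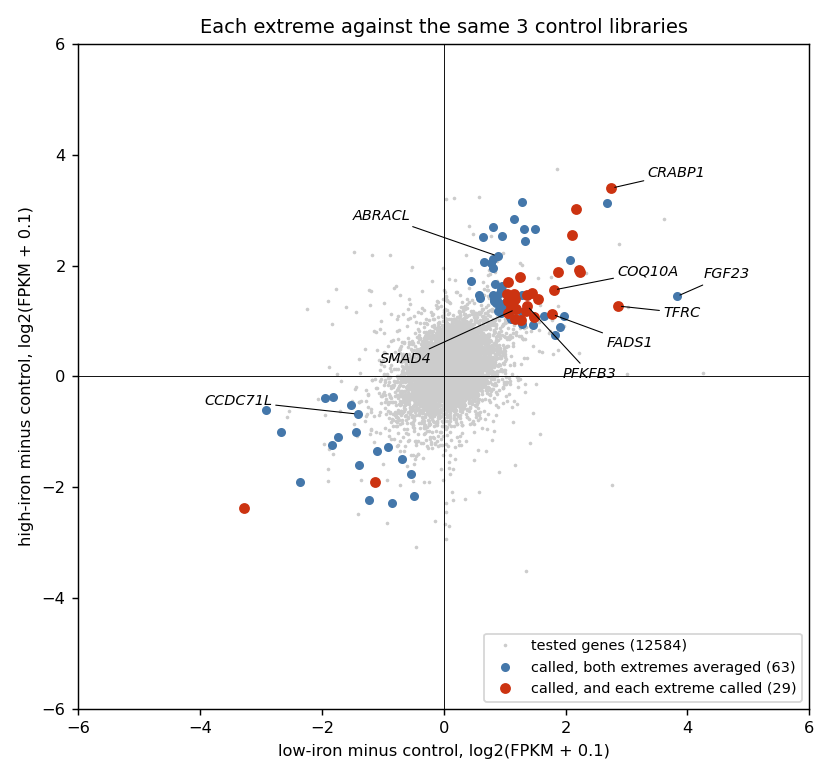
Log2 difference of low-iron pigs (x axis) and of high-iron pigs (y axis) from the same 3 control pigs, on log2(FPKM + 0.1), for 12584 tested genes (grey). Red points are the 29 genes called in each extreme and blue points the other 63 called genes; 27 of the red points lie at the upper right and SMAD4 sits at 1.18 and 1.21, while TFRC is farther along the low-iron axis.

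SMAD4, the partner that all receptor-activated SMAD proteins need to switch on hepcidin and other BMP and TGF-beta targets, had the smallest p-value among genes with a symbol. The gene lies on chromosome 1 (100521843 to 100633501, plus strand, Sscrofa11.1). Its levels were 7.97, 9.28 and 8.64 FPKM in low-iron, 4.02, 3.24 and 4.06 in control, and 10.5, 6.97 and 9.31 in high-iron pigs. All 6 libraries of the extremes lay above all controls, and the extremes overlapped each other. The group means were 8.63 ± 0.655, 3.77 ± 0.46 and 8.94 ± 1.81 FPKM (SD, n = 3 each). The log2 difference of the extremes was 1.19 (SE 0.17; adjusted p = 0.215, limma), with 1.18 in low-iron and 1.21 in high-iron. It was called under each of the 22 alternatives tried, at 1.03 to 1.28. Single genes were also set against all 84 splits into 6 and 3 libraries in a two-sided exact permutation test, whose smallest p is 0.0238. For SMAD4 and the other genes chosen because their groups do not overlap, the choice fixes this p, so it is not given for them. Where a gene was picked by its limma p-value in these libraries, its exact p is no separate support.

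The other BMP and TGF-beta genes showed smaller differences than SMAD4. Of 35 tested members of that list, 25 were higher and 10 lower (24 higher after median-of-ratios scaling). At an unadjusted p-value under 0.05, 3 were higher and 1 lower, and SMAD4 alone was called. The background on the deposited values was 67.4% higher and 0.572% called higher, with 2.88% higher and 0.564% lower at that p-value. The list median was 0.23, against 0.09 for all genes. SKIL, a co-repressor of SMAD proteins, differed by 0.52 (SE 0.21) and ENG, a TGF-beta co-receptor of endothelial cells, by 0.40 (SE 0.16), both without overlap with the controls. Across all tested genes 1.37% lay above the controls without overlap. Neither SKIL nor ENG kept an unadjusted p-value under 0.05 after median-of-ratios scaling. Receptor-regulated SMAD1 and SMAD5 stood at 0.11 and 0.20, inhibitory SMAD6 and SMAD7 at 0.27 and 0.33, the ligand BMP6 at 0.39 and the target ID1 at 0.05. None of these 6 had an unadjusted p-value under 0.05.

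TFRC, the transferrin receptor that takes up iron-loaded transferrin, had a larger difference and a wider spread. The gene lies on chromosome 13 (133976765 to 133997554, plus strand). Its levels were 87.9, 130 and 28.6 FPKM in low-iron, 6.51, 17 and 7.51 in control, and 40.6, 15.9 and 18.5 in high-iron pigs. Of the 6 libraries of the extremes, 5 lay above all controls, and high-iron 7 lay just under control 5. The log2 difference was 2.06 (SE 0.49; adjusted p = 0.9998, limma) and the exact permutation p was 0.0476 (two-sided, n = 6 and 3). Low-iron pigs stood 2.86 and high-iron pigs 1.27 above control. The call held in each of the 22 alternatives, at 1.80 to 2.49.

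The stem-loops through which iron regulatory proteins hold this mRNA are shown because they are the known iron-sensing part of a called gene. The RefSeq model of pig TFRC in Sscrofa11.1 ends with its coding region, so the 5000 bases behind the annotated end were searched on the gene's strand for C, 5 bases, the loop CAGTGN and 5 bases that pair with the first 5, with G to U pairs allowed. The 4 matches start 912, 1322, 1387 and 1434 bases after the annotated end, at chr13:133998466-133998494, chr13:133998876-133998904, chr13:133998941-133998969 and chr13:133998988-133999016. The loop is in capitals.
TFRC element 1: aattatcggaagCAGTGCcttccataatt
TFRC element 2: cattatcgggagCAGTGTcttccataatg
TFRC element 3: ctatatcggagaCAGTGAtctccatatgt
TFRC element 4: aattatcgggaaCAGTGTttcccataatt

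Among 20603 genes searched in the same way, 559 (2.71%) held at least 1 such match, 7 at least 2, and TFRC alone held 4. A match of letters is a description and does not show that the site is bound.

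Other genes of iron handling were mostly near control. Of 35 tested genes for iron uptake, storage, export and regulation, 20 were higher and 15 lower (15 higher after median-of-ratios scaling), with a median of 0.05. Background values on the deposited scale were 67.4% higher and a median of 0.09. Of all tested genes 0.572% were called higher and 0.564% were lower at an unadjusted p-value under 0.05. TFRC and SMAD4 were called, and STEAP3, the endosomal ferrireductase that works beside the transferrin receptor, was lower at an unadjusted p-value under 0.05. STEAP3 stood at 18.5, 18 and 17.9 FPKM in low-iron, 34.2, 19 and 35.6 in control and 19.5, 22.7 and 24.5 in high-iron pigs, a log2 difference of -0.51 (SE 0.20). Control 5 lay among the extremes and the other 2 controls above them. The ferritin chains FTH1 and FTL differed by -0.04 and -0.25, ferroportin (SLC40A1) by 0.22, and the iron regulatory proteins ACO1 and IREB2 by -0.02 each.

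Hepcidin itself (HAMP) scattered too widely for a difference to be detected. It stood at 3.84, 2.02 and 70.5 FPKM in low-iron, 50.3, 42.0 and 16.2 in control, and 52.3, 6.87 and 21.8 in high-iron pigs. Low-iron 7 was the highest of all libraries, and the ranges of the 3 groups overlapped. The log2 difference of the extremes was -1.33 (SE 0.99; exact permutation p = 0.381, n = 6 and 3). HIF1A, the oxygen-regulated transcription factor, differed by 0.17 (SE 0.18), and the qPCR reference gene ACTB by 0.26 (SE 0.19). EPO did not pass the filter and was above 0 only in low-iron 2 and 3, at 0.0929 and 0.604 FPKM.

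**Figure D2:**
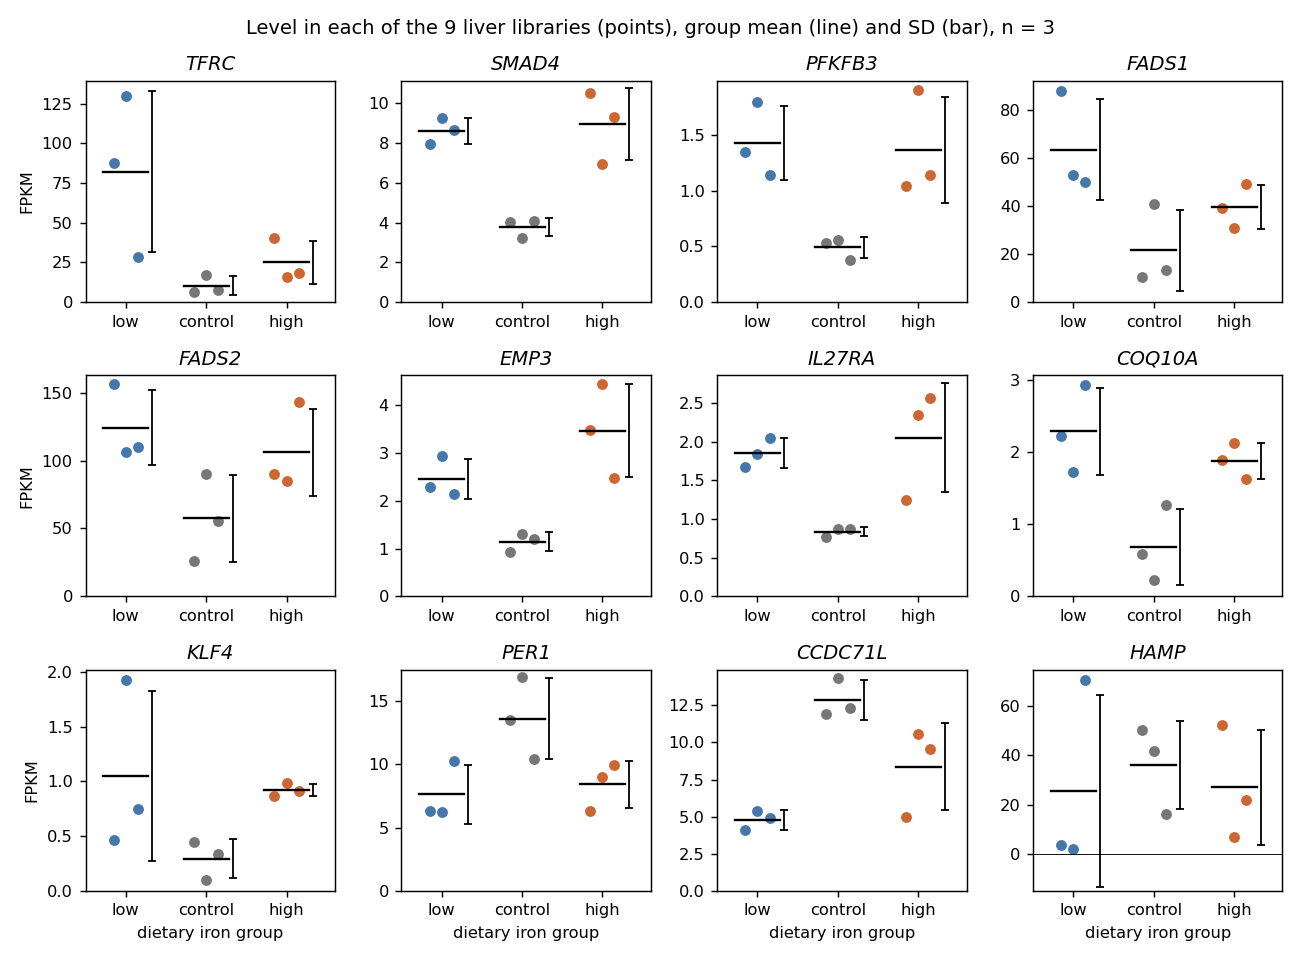
Level in FPKM (y axis, linear) of 12 genes in the low-iron, control and high-iron pigs; points are libraries, lines group means and bars the SD (n = 3). The controls lie below every extreme library for SMAD4, PFKFB3, EMP3, IL27RA, COQ10A and KLF4 and above every one for PER1 and CCDC71L, while HAMP ranges from 2.02 to 70.5 FPKM.

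Among hypoxia-induced genes, PFKFB3 was the only called member. PFKFB3 makes fructose 2,6-bisphosphate, the activator of glycolysis, and lies on chromosome 10 (64776315 to 64859118, minus strand). Its levels were 1.34, 1.79 and 1.14 FPKM in low-iron, 0.53, 0.559 and 0.379 in control, and 1.04, 1.91 and 1.14 in high-iron pigs. The controls did not overlap the extremes, and the extremes covered the same range. The log2 difference was 1.32 (SE 0.30; adjusted p = 0.9998, limma), with 1.36 in low-iron and 1.28 in high-iron. Its control mean was 0.49 FPKM, so it passed the filter through the extremes, and with a pseudocount of 1 the difference was 0.67 and no longer called. EGLN3, a prolyl hydroxylase that marks HIF for decay and needs iron to do so, differed by 0.99 (SE 0.40), with control 5 at 3.65 FPKM inside the range of the extremes. Of 28 tested members 24 were higher (17 after median-of-ratios scaling) and 4 lower, 2 of the higher ones at an unadjusted p-value under 0.05, with a median of 0.22. Of all tested genes 67.4% were higher on the deposited values, 2.88% at that p-value and 0.572% by call, and the median was 0.09. VEGFA differed by 0.15, SLC2A1 by -0.14 and LDHA by 0.46, none at that threshold. In glycolysis and gluconeogenesis 16 of 27 were higher (9 after median-of-ratios scaling), with GPI, the isomerase of the second step, at 0.41 (SE 0.15) and without overlap.

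The desaturases that make polyunsaturated fatty acids were called higher in each extreme, with 1 control overlapping the high-iron pigs. FADS1 and FADS2, the delta-5 and delta-6 desaturases, are iron-containing enzymes encoded next to each other on chromosome 2, 68758 bases apart (FADS1 9735425 to 9747405, plus strand, and FADS2 9633941 to 9666666, minus strand). FADS1 stood at 87.9, 52.8 and 49.8 FPKM in low-iron, 10.5, 41.0 and 13.2 in control, and 39.1, 30.9 and 49.1 in high-iron pigs. FADS2 stood at 156, 107 and 110 FPKM in low-iron, 26.3, 90.3 and 55.5 in control, and 89.9, 84.9 and 143 in high-iron pigs. For both genes control 5 was the high control and reached into the range of the high-iron pigs, while control 4 and control 6 lay below all extremes. The log2 difference was 1.45 (SE 0.39) for FADS1, 1.78 in low-iron and 1.12 in high-iron, and 1.14 (SE 0.34) for FADS2, 1.26 in low-iron and 1.02 in high-iron. Both had an exact permutation p of 0.0714 (n = 6 and 3) and an adjusted p of 0.9998 in limma. The FADS1 call held under each of the 22 alternatives, at 1.07 to 2.05, and the FADS2 call was lost without control 4, at 0.66.

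In the whole desaturation and elongation list, FADS1 and FADS2 included, 8 of 12 tested members were higher (6 after median-of-ratios scaling) and 4 lower. At an unadjusted p-value under 0.05, 3 were higher (background 67.4% higher and 2.88% at that p-value). The median of 0.09 equalled that of all genes. ELOVL6, which lengthens palmitate, stood at 50.7, 64.4 and 89.7 FPKM in low-iron, 22.2, 34.8 and 42.5 in control and 40.9, 56.3 and 61.9 in high-iron pigs. Only high-iron 2 overlapped the controls, and the log2 difference was 0.88 (SE 0.25), past an unadjusted p-value of 0.05 in each alternative. ELOVL2, which lengthens polyunsaturated chains, differed by 1.06 and SCD, the stearoyl-CoA desaturase, by -0.54, neither at that threshold. In fatty acid and triglyceride synthesis 8 of 15 were higher and none reached it.

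In cholesterol synthesis 21 of 22 tested genes were higher in the extremes, the exception being TM7SF2 at -0.12. The count was 21 after median-of-ratios scaling and after quantile normalization too. The list median was 0.36, against 0.09 for all genes, with 0.31 in low-iron and 0.31 in high-iron, and it stayed between 0.24 and 0.53 in the alternatives. SQLE and MSMO1 were called and 4 members were higher at an unadjusted p-value under 0.05. Over all tested genes 67.4% were above 0, 0.572% were called higher and 2.88% were higher at that p-value. SQLE, the squalene epoxidase, stood at 13.7, 8.91 and 9.31 FPKM in low-iron, 3.15, 9.54 and 5.25 in control and 6.79, 52.4 and 12.3 in high-iron pigs. High-iron 7 was far above every other library, and control 5 lay inside the low-iron range. MSMO1, the iron-dependent sterol methyl oxidase, stood at 152, 133 and 128 FPKM in low-iron, 42.9, 142 and 61.0 in control and 107, 278 and 133 in high-iron pigs, again with control 5 inside the extremes.

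The log2 difference was 1.26 (SE 0.55; exact permutation p = 0.0952) for SQLE and 1.03 (SE 0.38; exact permutation p = 0.119) for MSMO1. Both calls were lost without low-iron 2, high-iron 7, control 4 or control 6, and under median-of-ratios scaling or quantile normalization. MVK, the mevalonate kinase, differed by 0.57 (SE 0.24) and FDPS, the farnesyl diphosphate synthase, by 0.88. HMGCS1, which makes HMG-CoA, differed by 1.10, without an unadjusted p-value under 0.05. Summed over the list, control 5 stood at 1220 FPKM, above the 1214 FPKM of the highest low-iron library, while control 4 and control 6 stood at 615 and 760 FPKM.

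The windows of 300 bases before the RefSeq starts (Sscrofa11.1) of FADS1 and FADS2 are shown because these neighbouring genes were called together. Capitals mark 2 motifs searched on both strands, the sterol regulatory element TCACNCCAC and the CCAAT box. The windows are chr2:9735125-9735424 (plus) and chr2:9666667-9666966 (minus).
FADS1: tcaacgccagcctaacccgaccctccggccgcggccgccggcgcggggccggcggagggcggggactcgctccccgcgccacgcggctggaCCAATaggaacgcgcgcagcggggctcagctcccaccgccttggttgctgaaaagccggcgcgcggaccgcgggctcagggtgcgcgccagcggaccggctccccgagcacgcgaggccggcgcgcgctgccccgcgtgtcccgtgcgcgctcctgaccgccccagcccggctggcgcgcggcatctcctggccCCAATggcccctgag
FADS2: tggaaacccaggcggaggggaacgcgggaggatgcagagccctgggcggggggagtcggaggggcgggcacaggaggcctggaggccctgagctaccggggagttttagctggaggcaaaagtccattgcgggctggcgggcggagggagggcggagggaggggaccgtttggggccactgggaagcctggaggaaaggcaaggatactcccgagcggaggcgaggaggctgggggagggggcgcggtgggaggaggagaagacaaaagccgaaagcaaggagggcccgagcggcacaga

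The FADS1 window held 2 CCAAT boxes and no sterol regulatory element, and the FADS2 window held neither motif. Among all 20649 windows of this length 0.915% held the sterol regulatory element and 35.9% the CCAAT box. In the desaturation and elongation list 0 of 15 windows held the element. No match says only that these letters are not in this window.

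The remaining called genes without overlap were expressed at low to moderate levels and were of mixed function. EMP3, an epithelial membrane protein, stood at 2.29, 2.93 and 2.14 FPKM in low-iron, 0.928, 1.31 and 1.21 in control and 3.48, 4.44 and 2.48 in high-iron pigs (log2 difference 1.26, SE 0.23; adjusted p = 0.584, limma). IL27RA, a subunit of the interleukin-27 receptor, stood at 1.67, 1.84 and 2.05, then 0.767, 0.874 and 0.872, then 1.25, 2.35 and 2.56 FPKM (1.10, SE 0.26). COQ10A, a mitochondrial coenzyme Q-binding protein, stood at 2.21, 1.72 and 2.92, then 0.581, 0.22 and 1.26, then 1.89, 2.12 and 1.62 FPKM (1.68, SE 0.40). In these 3 genes every extreme library exceeded every control, and each extreme was called. With a pseudocount of 1 none of the 3 calls held.

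ABRACL, a small actin-regulating protein, followed another order. It stood at 0.978, 1.10 and 1.76 FPKM in low-iron, 0.602, 0.63 and 0.646 in control and 4.10, 2.14 and 3.62 in high-iron pigs. The groups did not overlap and high-iron was highest. The difference of the extremes was 1.53 (SE 0.28; adjusted p = 0.584, limma), with 0.88 in low-iron and 2.17 in high-iron.

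PCOLCE, an enhancer of procollagen processing, and RGS5, a G protein regulator of pericytes, shared a low control 6. PCOLCE stood at 11.2, 9.10 and 9.37, then 6.44, 7.14 and 2.03, then 12.2, 10.7 and 10.4 FPKM, and RGS5 at 14.8, 16.2 and 11.5, then 9.71, 10.9 and 3.40, then 18.9, 17 and 12.9 FPKM. Their differences of 1.18 (SE 0.33) and 1.06 (SE 0.33) were no longer called without control 6, and RGS5 also lost its call in 5 other alternatives, among them median-of-ratios scaling and quantile normalization. FAM212B (1.28), the chemokine CCL4 (1.19), the granule protease gene GZMA (1.32) and the transcription factor KLF4 (1.48) lost their calls without control 5, which was the lowest control for each. FAM212B, GZMA and KLF4 had control means of 0.457, 0.298 and 0.294 FPKM and passed the filter through the extremes. KLF4 stood at 0.465, 1.93 and 0.748, then 0.45, 0.0966 and 0.335, then 0.87, 0.984 and 0.91 FPKM, so low-iron 2 and control 4 were nearly equal. The symbol GZMA stands on 2 genes of the annotation, the other at 0.28, so reads may be split between them.

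The other genes with a symbol that were called in each extreme overlapped the controls in 1 or more libraries. SNED1 (1.26) and OLFML2A (1.21) encode secreted matrix proteins, CD72 (1.52) a surface protein of B cells, CD83 (1.10) a marker of activated dendritic cells and WNT11 (2.06) a Wnt ligand. The control mean of CD72 was 0.298 FPKM, so it passed the filter through the extremes. SNED1, OLFML2A, CD83 and WNT11 each had an exact permutation p of 0.0476 (n = 6 and 3). They were picked by calls on the same libraries, so this p adds no separate support. None of the calls of SNED1, OLFML2A, CD72, CD83 and WNT11 held with a pseudocount of 1. CRABP1, a cellular retinoic acid-binding protein, was listed at 0 in all 3 controls and in low-iron 3, and at 0.421 to 3.69 FPKM in the other 5 libraries. It too passed the filter through the extremes. The exact p is left out for CD72 and CRABP1 for that reason.

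Among the 20 lower genes, CCDC71L was the only one with a symbol whose values did not overlap. It stood at 4.07, 5.36 and 4.89 FPKM in low-iron, 11.9, 14.4 and 12.3 in control and 5.01, 10.5 and 9.54 in high-iron pigs. Low-iron was lowest, and 2 of the 3 high-iron libraries came close to the controls. The log2 difference was -1.05 (SE 0.23), with -1.42 in low-iron and -0.68 in high-iron, and 6 of the 22 alternatives took the call away.

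PER1, a repressor of the circadian clock, was below the controls in all 6 libraries without reaching the fold threshold. It stood at 6.31, 6.26 and 10.3 FPKM in low-iron, 13.5, 16.9 and 10.4 in control and 6.34, 8.96 and 9.94 in high-iron pigs. The lowest control and the highest low-iron library were nearly equal. The log2 difference was -0.76 (SE 0.23), with -0.84 and -0.68 in the low-iron and high-iron pigs. It kept an unadjusted p-value under 0.05 in each alternative (-0.94 to -0.59). The exact permutation p was 0.0238, the smallest possible. PER1 was picked by its p-value in the same libraries, so this exact p adds no separate support. The clock list, PER1 included, had 10 of 20 members higher and 10 lower (7 higher after median-of-ratios scaling), from RORA at -0.81 to NR1D1 at 1.08. Of the immediate early genes 17 of 24 were higher (16 after median-of-ratios scaling) with a median of 0.26. At an unadjusted p-value under 0.05, 2 were higher and 1 lower. The matching shares of all tested genes were 67.4% higher, then 2.88% higher and 0.564% lower at that p-value. KLF2 was at 0.75 (SE 0.32) and SIK1, a kinase that restrains CREB targets, at -0.52 (SE 0.22).

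Endothelial markers were higher as a list. Of 15 tested members, 4 were higher at an unadjusted p-value under 0.05 (background 2.88%) and VWF by call (background 0.572%). All 15 were higher, under median-of-ratios scaling and quantile normalization too. Their summed level was 269 to 323 FPKM in low-iron, 225 to 257 in control and 280 to 383 in high-iron pigs, so on the deposited values every extreme library exceeded every control. Divided by the median-of-ratios factors, a step added after the data were seen, the sums were 254 to 312, 229 to 268 and 292 to 354 FPKM, and 5 of the 6 libraries did. The median was 0.35, between 0.25 and 0.42 in the alternatives. Summed neutrophil markers separated too, at 41.0 to 45.4 FPKM in low-iron, 34.2 to 38.6 in control and 38.8 to 52.7 in high-iron pigs. After the same division 5 of the 6 neutrophil sums did. Acute phase sums lay below every control in all 6 extreme libraries, at 113159 to 118063, 122431 to 136538 and 116265 to 118061 FPKM. These overlapped after the division. In bulk liver RNA, more cells of a type and more RNA per cell cannot be told apart.

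STAB1, a scavenger receptor of the liver sinusoid, was the marker with the smallest p-value. It stood at 18.3, 20.1 and 20.4 FPKM in low-iron, 12.9, 15.5 and 12.3 in control and 18.6, 18.4 and 19.3 in high-iron pigs. The groups of extremes were alike and did not overlap the controls. Its log2 difference was 0.50 (SE 0.14), with 0.54 in low-iron and 0.47 in high-iron, and it kept an unadjusted p-value under 0.05 in each alternative. The exact permutation p was 0.0238, the smallest possible. STAB1 was picked by its p-value in the same libraries, so this exact p adds no separate support. VWF, the clotting factor of endothelial cells, differed by 1.26 (SE 0.45), with low-iron 7 at 1.35 FPKM inside the control range.

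Markers of other cell types also differed between the groups, and their part in the called genes was not tested. Of the Kupffer cell and macrophage markers 14 of 17 were higher (13 after median-of-ratios scaling), 6 at an unadjusted p-value under 0.05 (67.4% and 2.88% of all tested genes), with sums of 1389 to 1472, 1200 to 1521 and 1514 to 1751 FPKM in low-iron, control and high-iron pigs. CD163, the haemoglobin scavenger receptor of macrophages, stood at 79.6, 99.4 and 73.9, then 66.2, 67.6 and 72.3, then 109, 96.6 and 101 FPKM, without overlap (0.43, SE 0.15). Its unadjusted p-value under 0.05 was lost after median-of-ratios scaling. LYZ had the highest difference of the list at 2.90 (SE 1.10), but was listed at 0 in control 4 and control 5 and at 5.37 FPKM or less elsewhere. T and NK cell markers were higher in 15 of 17, 1 at that threshold, with sums of 47.4 to 52.2, 45.7 to 63.7 and 67.3 to 110 FPKM, so low-iron lay within the control range. Stellate cell and fibroblast markers were higher in 11 of 16, 2 at that threshold, with sums of 206 to 434, 194 to 323 and 298 to 414 FPKM. Hepatocyte markers were higher in 10 of 17 (4 after median-of-ratios scaling) with a median of 0.03, and B and plasma cell markers in 3 of 11. Bile duct markers were higher in 7 of 8, neutrophil markers in 6 of 7 and erythroid markers in 3 of 3, with no member of these lists at an unadjusted p-value under 0.05. The erythroid sums were 478 to 2456, 212 to 1452 and 351 to 841 FPKM in low-iron, control and high-iron pigs. KLF1 and RHAG of that list were listed at 0 in every library.

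**Figure D3:**
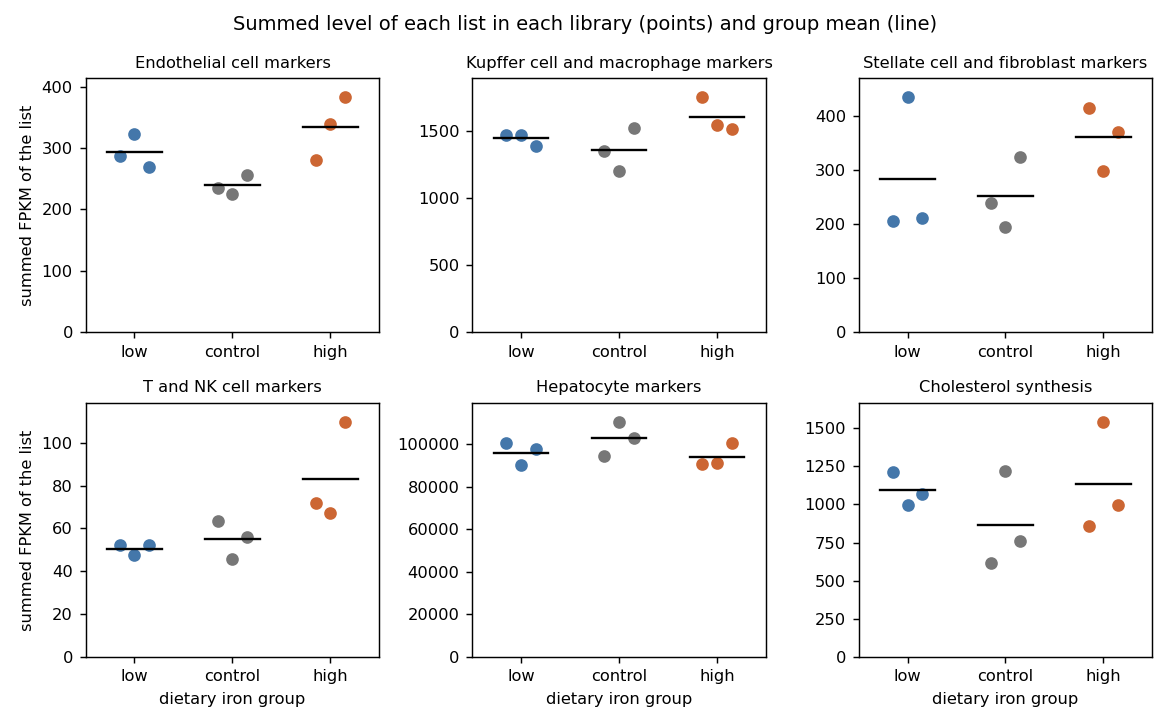
Summed FPKM (y axis, from 0) of 5 marker lists and of the cholesterol synthesis list in each library, with points for libraries and lines for group means. The endothelial sums of the 6 extreme libraries, 269 to 383 FPKM, lie above the 225 to 257 FPKM of the controls, and control 5 is the highest control for cholesterol synthesis at 1220 FPKM.

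The matrix genes were higher in the extremes with larger differences in the high-iron pigs. Of 36 collagens and matrix genes 31 were higher (30 after either rescaling) and 5 lower. At an unadjusted p-value under 0.05, 4 were higher, and none was called. Background shares were 67.4% higher and 2.88% higher at that p-value. The list median was 0.40, with 0.16 in low-iron and 0.61 in high-iron, a gap that was not tested. COL6A3, a chain of microfibrillar collagen VI, stood at 2.45, 4.37 and 3.25, then 2.42, 2.70 and 2.60, then 4.69, 4.87 and 8.19 FPKM (0.73, SE 0.24). TIMP2, a metalloproteinase inhibitor, differed by 0.63 (SE 0.21) and the basement membrane chain COL4A1 by 0.61 (SE 0.21). The low-iron libraries of COL6A3 reached down to the controls, while the high-iron ones did not.

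Most enzymes of nitrogen disposal stood lower in the average of the extremes, while the list medians of the low-iron and high-iron pigs had opposite signs. Of 32 urea cycle and amino acid breakdown genes 22 were lower (background 32.6%) and 10 higher (only 3 higher after median-of-ratios scaling). At an unadjusted p-value under 0.05, 3 were lower (background 0.564%). The list median was -0.08 (0.06 in low-iron and -0.27 in high-iron). CPS1, the entry enzyme of the urea cycle, stood at 792, 493 and 640 FPKM in low-iron, 780, 843 and 722 in control and 331, 449 and 513 in high-iron pigs (-0.59, SE 0.21). ARG1, the last enzyme of the cycle, stood at 746, 599 and 799, then 784, 566 and 890, then 279, 454 and 298 FPKM, so its difference of -0.59 (SE 0.22) came with -0.05 in low-iron and -1.13 in high-iron. TAT, which opens tyrosine breakdown, was at -0.71 (SE 0.32). Of 26 drug-metabolizing enzymes 13 were lower, with CYP2C33 at -0.63 (SE 0.27), and of 30 acute phase proteins 17 were lower, with APCS, serum amyloid P, at -0.67 (SE 0.24).

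The other lists held few members past a threshold. For comparison with each, 67.4% of all tested genes were higher, 2.88% at an unadjusted p-value under 0.05. In the NF-kappa B pathway 29 of 36 were higher (24 after median-of-ratios scaling) with a median of 0.21, 3 of them at an unadjusted p-value under 0.05. They were the inhibitor NFKBIE (0.53, SE 0.21), the survival gene BCL2 (0.91, SE 0.38) and the kinase IKBKB (0.32, SE 0.14), which lost that threshold in 7, 6 and 11 of the 22 alternatives. Interferon-stimulated genes were higher in 27 of 34 with none at that threshold, at a median of -0.08 in low-iron and 0.44 in high-iron. In the amino acid and ER stress list 18 of 28 were higher and VLDLR, a lipoprotein receptor, was at 0.81 (SE 0.28), and in antioxidant defence 16 of 30 were higher, 1 at that threshold. Genes of haem (9 of 16), fatty acid oxidation (20 of 28), protein folding (17 of 21), the respiratory chain (17 of 28), bile acids (10 of 20) and cell division (15 of 34) were higher in the numbers given, with none past that threshold in either direction. Among the uncalled genes named above from a list, ELOVL6, COL6A3, PER1 and STAB1 kept an unadjusted p-value under 0.05 in each of the 22 alternatives, and the others for which these were run lost it in 1 to 11.

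**Figure D4:**
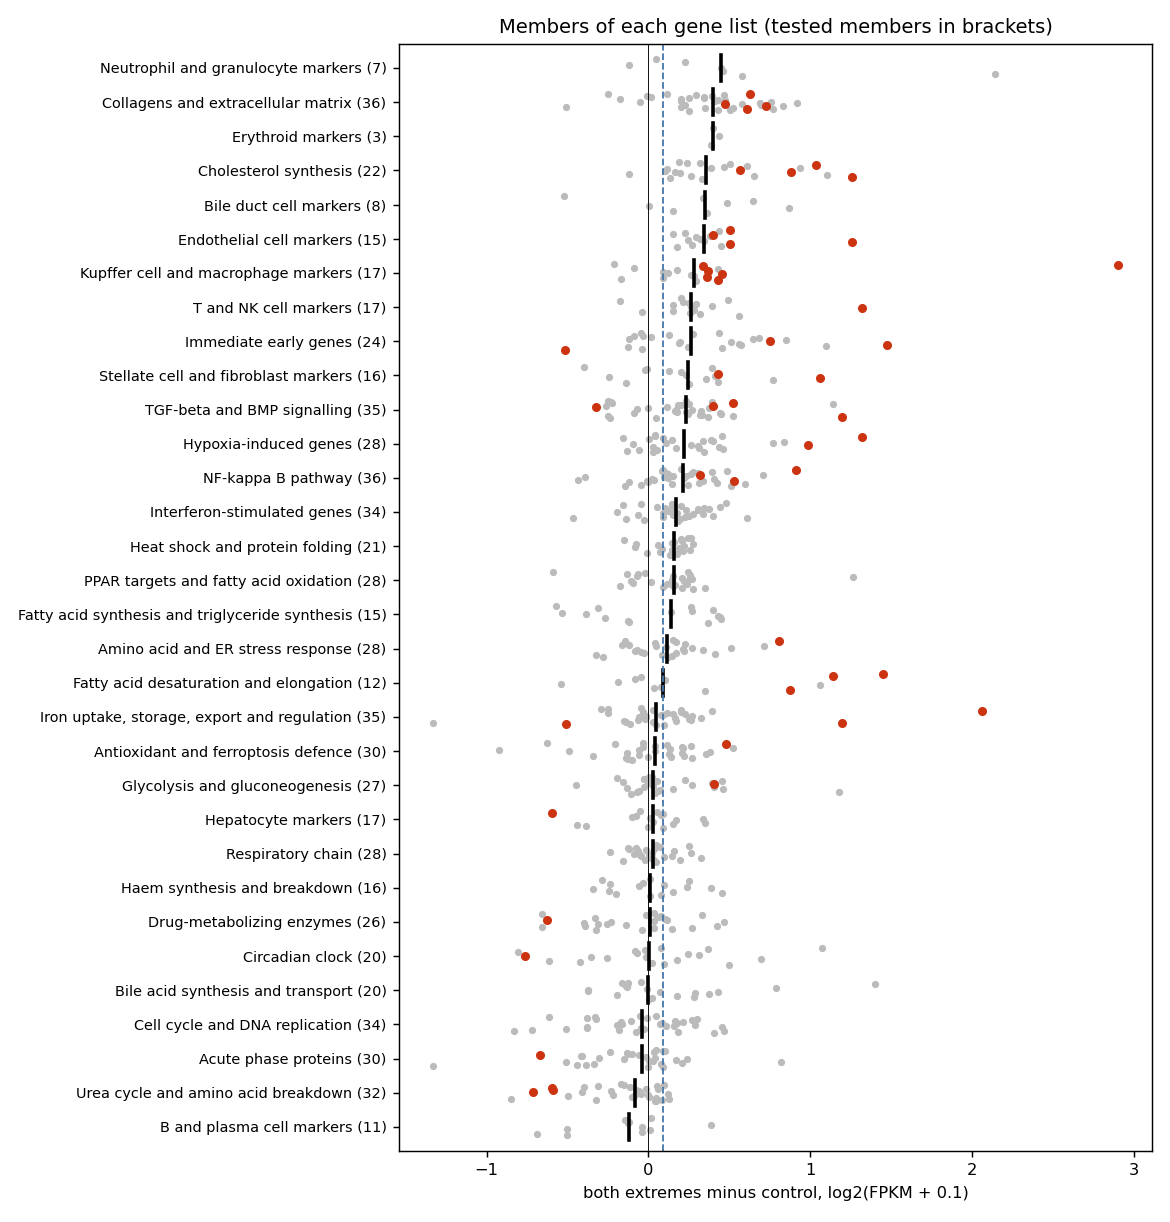
Log2 difference of both extremes from control (x axis, log2(FPKM + 0.1)) for every tested member of each gene list, with the number tested in brackets; red points have an unadjusted limma p-value under 0.05, black bars are list medians and the dashed line is the median of all genes, 0.09. All 15 endothelial markers and 21 of 22 cholesterol genes lie right of 0.

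Another 4 called genes were picked after their values were seen. LOC396781, an IgG heavy chain gene of a family whose reads may be shared between copies, had the smallest p-value of all genes, with 6.58, 6.57 and 8.11, then 3.75, 4.52 and 5.30, then 26.7, 18.5 and 36.4 FPKM. Its difference of 1.58 (SE 0.22; adjusted p = 0.215, limma) was made of 0.64 in low-iron and 2.52 in high-iron, the latter with an adjusted p of 0.0129 for high-iron against control. FGF23, the phosphate-regulating hormone better known from bone, stood at 3.06, 10.4 and 0.414 FPKM in low-iron, 0, 0 and 0.502 in control and 0.146, 0.635 and 0.567 in high-iron pigs. Its control mean was 0.167 FPKM and its high-iron mean 0.45 FPKM, so it passed the filter through the low-iron pigs. The controls listed at 0 make its difference depend on the pseudocount, from 1.07 to 4.69 over the alternatives. APOA4, an apolipoprotein of triglyceride-rich particles, stood at 47.6, 1248 and 1127, then 68.1, 81.1 and 163, then 414, 203 and 831 FPKM (2.08, SE 0.92), and lost its call in 12 of the 22 alternatives, both rescalings among them. Low-iron 2 was the lowest library of all for APOA4 and the other 5 extremes exceeded every control. SULT1E1, the oestrogen sulfotransferase, stood at 194, 80.1 and 244, then 70.0, 127 and 44.0, then 249, 107 and 137 FPKM (1.08, SE 0.42), with low-iron 3 and high-iron 7 inside the control range, and lost its call in 6 of the 22, median-of-ratios scaling among them.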

How the data were processed

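Liver RNA of 9 pigs was sequenced. Per the labels and the study's methods, the authors used Hisat2 for alignment to Sscrofa11.1 and StringTie for assembly, and they deposited a single table of FPKM per gene and library. It holds no counts, so the DESeq2 test of the study was not run. The 20660 numbered genes were named by their serial number in the NCBI annotation of Sscrofa11.1; with this numbering all 20660 were protein-coding, and with a shift of 1 only 15031 were. The 5258 new genes carry no name. Groups came from the sample titles.

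Values were analysed as log2(FPKM + 0.1) for genes with a mean of at least 0.5 FPKM, so differences of low genes are understated. A linear fit of the 3 groups in limma 3.58.1 (R 4.3.3), with trended empirical Bayes moderation and 6 residual degrees of freedom, gave the contrasts, and p-values were adjusted by Benjamini-Hochberg over all tested genes. The fit was tested on simulated data. Single genes were also tested by exact permutation (Python 3.11.15, numpy 2.4.6). List descriptions use 23 process lists and 10 marker lists. The members and lists were chosen with earlier results of these data known. Named genes were the 12 non-overlapping called genes with a symbol and the smallest p in each direction, every symbol called in each extreme, up to 3 members per list with the smallest unadjusted p under 0.05, and the genes measured by qPCR.

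Alternatives were other pseudocounts and filters, TPM, median-of-ratios and quantile scaling, a single group for both extremes, and array weights. The rest were EIF1AY as a covariate, no trend, the fold of mean FPKM, the label number as a replicate block and leaving out each library. The low-iron and high-iron groups share the numbers 2 and 7, but nothing ties them to one animal, litter or day. Sequences were read from the RefSeq genome with pysam 0.24.0. Some named genes and 1 sequence are not reported here.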

Additional observations from a re-analysis of the deposited data

Results flagged for a closer look

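In 5 of the named genes the high-iron and low-iron pigs differed from each other at the same thresholds as the calls, a log2 difference of at least 1 and an unadjusted limma p-value under 0.05, so that the average of both extremes hides unequal parts. The difference, high-iron minus low-iron, was -1.59 for TFRC and -2.38 for FGF23, both highest in low-iron pigs. It was 1.29 for ABRACL and 1.88 for LOC396781, both highest in high-iron pigs, and -1.08 for ARG1, which stood at its control level in low-iron pigs. In limma none of the 5 had an adjusted p-value under 0.05 for this difference, the values being 0.64, 0.697, 0.573, 0.2 and 0.539 in the order named. FGF23 rests on low-iron 2 and 3 at 3.06 and 10.4 FPKM, with low-iron 7 at 0.414 FPKM inside the high-iron range.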

How the results depend on the processing

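For both extremes against control no gene had an adjusted p-value under 0.05 in any alternative (smallest 0.0633 to 0.654 when a library was left out, with 349 to 538 genes at an unadjusted p-value under 0.05). The 92 called genes became 21 with a pseudocount of 1, 293 without a filter, 55 at a mean of at least 1 FPKM, and 86 to 172 when a library was left out (172 without control 5 and 150 without control 4), of which 56 to 75 were among the 92. The 29 genes called in each extreme became 5 with a pseudocount of 1, 99 without a filter, 48 with array weights and 22 to 70 without a library. The 18 called genes that differed between the extremes became 3 and 11 with pseudocounts of 1 and 0.01, 41 without a filter, 11 at a mean of at least 1 FPKM and 12 to 23 without a library. The cause of these shifts was not tested. With the label number as a random replicate block 87 genes were called, 85 of them among the 92, and 31 in each extreme. Deviations of same-numbered libraries correlated at 0.0183 and 0.0213, and SQLE was among the named genes that lost their threshold. Over the named genes and alternatives, 1095 values kept their direction and side of the threshold, 220 kept the direction alone, HAMP passed the threshold in 1, and none reversed.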
